A study of Homo sapiens with 4 samples.

Results

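The set comprised 38 genes of fibroblast growth factor receptor (FGFR), RAS and MAP kinase signalling, chosen by symbol from the 62069 genes counted in each library of KMS11, an established multiple myeloma cell line that carries the t(4;14) translocation. It held the receptors FGFR1, FGFR2 and FGFR4, adaptors, RAS and RAF genes, feedback inhibitors, and ETS and immediate early target genes. RNA was sequenced from 4 libraries. Of these, 2 came from cells that received a control shRNA (labelled KMS11_control) and 2 from cells that received an shRNA against NSD2 (labelled KMS11_shM2). Both groups were infected with lentivirus in polybrene at 10 µg/mL and collected for RNA after 96 h, of which 72 h followed a change of medium. Whether both libraries of a group were grown apart is not given in the labels, so p-values reflect the spread among these 4 libraries alone, and that spread may be technical.

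FGFRs are receptor tyrosine kinases. Bound by ligand, they phosphorylate the docking protein FRS2, which recruits GRB2 and GAB1 and so activates RAS, the RAF kinases and the MAP kinases ERK1 and ERK2. ERK signalling induces immediate early genes within minutes and ETS factors later, and it also induces its own inhibitors, the Sprouty and SPRED proteins and the dual-specificity phosphatases (DUSPs). In t(4;14) myeloma the translocation can place FGFR3, beside NSD2, under an immunoglobulin enhancer.

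Library totals ran from 46728940 to 55059566 fragments. NSD2, the targeted gene, stood at 1121 and 1471 CPM (fragment counts set relative to the scaled size of their library) in control libraries 1 and 2. In the libraries labelled knockdown it stood at 919 and 1156 CPM. The groups overlapped and NSD2 did not pass the test (adjusted p = 0.244, with a log2 fold change of -0.32 and a 95% interval from -0.66 to 0.02, by the quasi-likelihood test of edgeR), so that group keeps the name its label gives it, knockdown, with no more implied. Plasma cell markers were present, with a summed level of 3382 to 3558 CPM in the control and 3200 to 3582 CPM in the other libraries. Of the 8, SLAMF7 and CD38 were lower by test, where 4.19% of all genes tested were. CD38 was scarce throughout, at 1.54 and 0.70 CPM in the controls and 0.29 and 0.0369 CPM in the others. The T or NK cell markers summed to 3.69 to 4.37 CPM in the controls and to 2.58 to 2.63 CPM in the others, nearly all of it CD3E, with CD3D at 0 in every library. The 5 myeloid markers summed to between 1.61 and 2.67 CPM, with LYZ at 0 in 3 libraries. Nearly all of that sum was ITGAM, at 1.94 and 2.59 CPM in the controls and 1.51 and 1.64 CPM in the others. The 7 stromal or epithelial markers summed to 64.0 and 51.0 CPM in the control libraries and to 33.8 and 31.8 CPM with the NSD2 shRNA. EPCAM and KRT18, 2 of the 3 tested, fell, where 4.19% of all genes tested did, and DCN was at 0 in 3 libraries. The part of these epithelial markers in the results below was not tested. In bulk RNA, fewer cells that express a gene cannot be told apart from less RNA per cell.

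Of the 38 genes, 34 had enough fragments to be tested, and 4 of these fell and 2 rose in the libraries labelled knockdown. The falls were those of SPRY4, an inhibitor, ETV4, an ETS factor, and the target genes PHLDA1 and NR4A1, and the rises were those of the receptor gene FGFR4 and the RAS gene HRAS. A gene was called at an adjusted p below 0.05, corrected over all 17172 genes tested, of which 4.19% fell and 1.74% rose. Calls in either direction made up 17.6% of the 34 genes and 5.93% of all genes tested. The 4 falls made up 11.8% and the 2 rises 5.88% of the 34 tested genes. The set was chosen with earlier results of these data known, so its shares are descriptive. They were not compared by test with those of all genes. The median log2 fold change of the 34 was -0.08, against -0.0016 over all genes tested. The groups did not overlap in 19 of the 34 (55.9%), near the 53.2% seen over all genes tested. The 4 genes under the filter on low counts were SPRED3, EGR2, EGR3 and FOSL1.

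**Figure D1:**
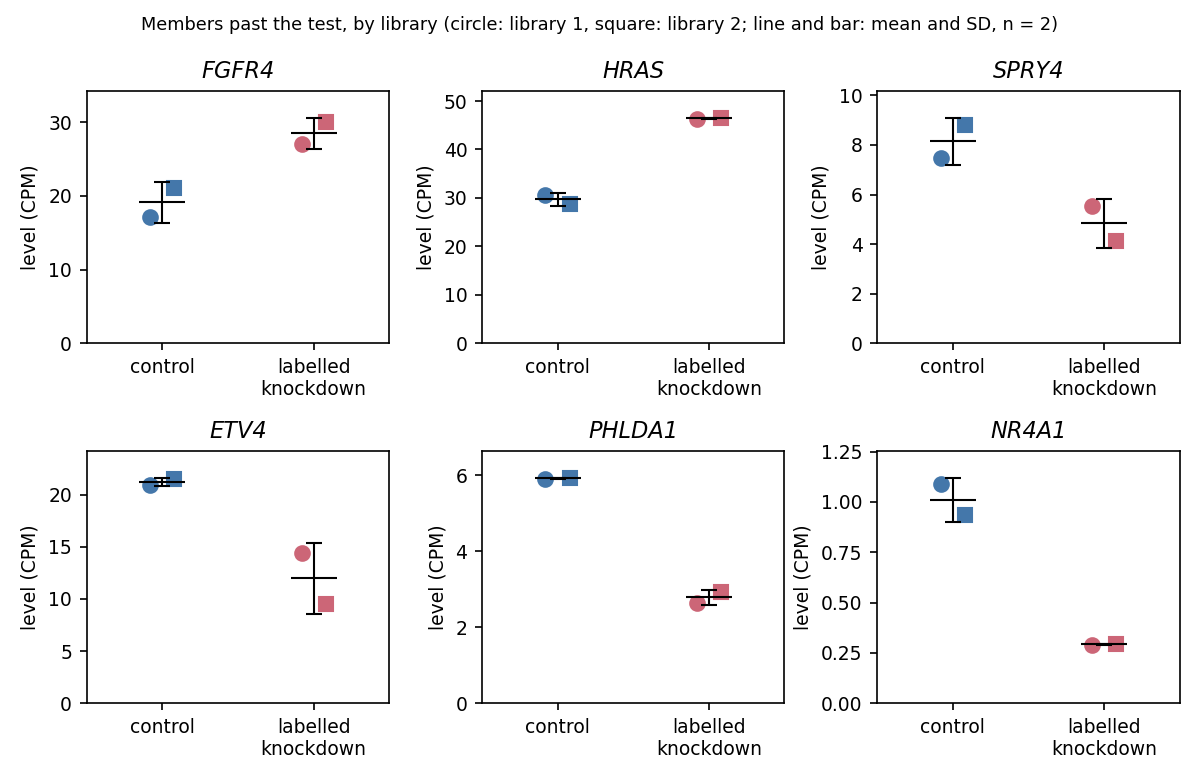
Levels in CPM (vertical axis, from 0) of the 6 genes that passed the test, in the control libraries (blue) and those labelled NSD2 knockdown (red), with the mean and SD of each group (n = 2). FGFR4 and HRAS were higher, and SPRY4, ETV4, PHLDA1 and NR4A1 lower, in both libraries labelled knockdown than in both controls.

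Start regions of genes of the set, among them all that passed the test except ETV4, were searched for binding motifs of factors within this pathway, in windows from 250 bases before to 50 bases after each RefSeq start (GRCh38.p14, whereas fragments were counted on GRCh37). RefSeq gave 48 windows for 28 of the 38 genes. The motifs, on both strands, were TGANTCA (AP-1, the FOS and JUN dimer), TGACGTCA (CRE), CCGGAAGT (ETS), GCGNGGGCG (the EGR factors) and the SRF CArG box. None of these words contains another. The 250 bases before the start are printed for the 3 called genes with a single RefSeq start, and for EGR1 because it held both CArG boxes and an EGR motif. Capitals mark motif matches.

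HRAS, chr11:535577-535826, minus strand: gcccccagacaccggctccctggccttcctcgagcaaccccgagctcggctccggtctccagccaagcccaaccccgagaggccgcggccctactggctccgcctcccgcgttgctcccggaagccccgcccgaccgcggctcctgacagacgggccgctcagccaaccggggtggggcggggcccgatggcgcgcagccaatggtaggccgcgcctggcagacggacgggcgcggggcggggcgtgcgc

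SPRY4, chr5:142324248-142324497, minus strand: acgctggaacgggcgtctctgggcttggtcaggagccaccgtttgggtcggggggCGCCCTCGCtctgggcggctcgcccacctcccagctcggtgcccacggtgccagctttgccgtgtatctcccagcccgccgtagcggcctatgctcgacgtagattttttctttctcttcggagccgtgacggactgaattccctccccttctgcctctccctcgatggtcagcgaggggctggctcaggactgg

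PHLDA1, chr12:76031777-76032026, minus strand: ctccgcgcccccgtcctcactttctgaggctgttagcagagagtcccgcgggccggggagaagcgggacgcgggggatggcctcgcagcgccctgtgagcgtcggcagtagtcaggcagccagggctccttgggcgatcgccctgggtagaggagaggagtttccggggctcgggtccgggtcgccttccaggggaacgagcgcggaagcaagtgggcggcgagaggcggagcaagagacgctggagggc

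EGR1, chr5:138465229-138465478, plus strand: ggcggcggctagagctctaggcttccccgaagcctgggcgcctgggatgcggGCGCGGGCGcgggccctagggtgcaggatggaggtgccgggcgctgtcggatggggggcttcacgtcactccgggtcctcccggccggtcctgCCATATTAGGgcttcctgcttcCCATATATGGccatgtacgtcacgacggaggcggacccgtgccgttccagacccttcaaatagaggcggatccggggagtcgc

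In SPRY4 the match was an EGR motif, which 9.43% of all 35116 RefSeq windows held and 8 of the 48 windows of this set. The windows of HRAS and PHLDA1 held no match to these letters, nor did either window of NR4A1 or of FGFR4. EGR1 held 2 CArG boxes, at 105 and 83 bases before the start (1.29% of all windows held at least 1). A CArG box also lay in 1 window of EGR2. The AP-1 motif was found in windows of SPRED2 and SPRED3 (7.71% of all windows), the CRE in DUSP1 (1.85%) and the ETS motif in FRS2 and NRAS (4.14%). A match describes the letters of a window and is not a measured binding site.

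Among the receptors, FGFR4 rose while FGFR1 and FGFR2 gave log2 fold changes near 0 in the main test. With GC content and length terms FGFR1 was at 0.25 and FGFR2 at 0.20, and neither passed the threshold. FGFR4 (ENSG00000160867, GRCh37 chromosome 5, 176513887 to 176525145) stood at 17.1 and 21.1 CPM in controls 1 and 2 and at 27.1 and 30.03 CPM with the NSD2 shRNA. Both libraries labelled knockdown lay above both controls. The mean went from 19.1 ± 2.81 to 28.5 ± 2.11 CPM (SD, n = 2 each), a 1.49-fold rise (log2 fold change 0.58 with a 95% interval from 0.29 to 0.86 and an SE of 0.13, adjusted p = 0.0279 by edgeR). The call was lost without knockdown library 2, where the log2 fold change was 0.49 (adjusted p = 0.0774, and 0.000285 to 0.0774 over the alternatives). Ranges of adjusted p, and the settings listed as passing or missing the threshold, leave out the fits with the replicate block here and for the genes below. Those fits are given in the last section. FGFR2 was at 27.4 and 26.7 CPM in the controls and at 28.8 and 27.1 CPM in the other libraries, and the groups overlapped. Its log2 fold change was 0.05 with an interval from -0.18 to 0.27. For FGFR1 the levels were 7.28 and 7.17 against 8.23 and 6.38 CPM, with a log2 fold change of 0.01 and an interval from -0.35 to 0.38.

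These 3 receptors were expressed far below FGFR3, which lies at the translocation. Per kb of exon, FGFR3 had 817 and 821 CPM per kb in the control libraries and 706 and 700 CPM per kb in those labelled knockdown, and it did not pass the test (log2 fold change -0.22, adjusted p = 0.224). FGFR4 had 3.96, FGFR2 3.59 and FGFR1 0.569 CPM per kb on average in the controls. FGFR3 was thus 207 times, 228 times and 1440 times as high as FGFR4, FGFR2 and FGFR1. These ratios depend on annotated exonic length, 12698 bp for FGFR1 and 4834 bp for FGFR3, which need not be that of the transcripts expressed. Before division by length, FGFR3 averaged 3959 CPM and FGFR1 7.22 CPM in the controls. Per kb of exon, FGFR3 made up 99.1% and 99.0% of the summed level of the 4 receptors in the control libraries and 98.6% and 98.5% in the others. The share of FGFR4 was 0.43% and 0.527% against 0.783% and 0.876%.

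The 3 adaptor genes did not pass the test, and their intervals were narrow. GRB2, which links receptors to the RAS exchange factor SOS, was the most abundant, at 105.5 and 101 CPM in the controls against 114 and 95.9 CPM. Its interval ran from -0.22 to 0.26 on the log2 scale. FRS2, the docking protein of FGFRs, had a log2 fold change of -0.05 (interval -0.29 to 0.19), and GAB1, a scaffold for PI3 kinase and SHP2, one of -0.14 (interval -0.37 to 0.09). GAB1 overlaps another tested gene on the opposite strand, and fragments were counted without strand, so the origin of fragments in the overlap is uncertain.

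HRAS rose and NRAS did not pass the test, although both encode RAS GTPases. HRAS (ENSG00000174775, GRCh37 chromosome 11, 532242 to 537287) had 30.7 and 28.8 CPM in the controls and 46.3 and 46.5 CPM in the libraries labelled knockdown. The libraries of each group lay close together, and the groups were far apart. Its mean went from 29.7 ± 1.35 to 46.4 ± 0.184 CPM (SD, n = 2 each), a rise of 56.2% (log2 fold change 0.64 with a 95% interval from 0.43 to 0.86 and an SE of 0.10, adjusted p = 0.0053 by edgeR). No alternative ended the call, and the log2 fold change stayed between 0.56 and 0.69. NRAS stood at 57.8 and 64.1 CPM in the controls and at 61.9 and 66.9 CPM in the others, with a log2 fold change of 0.08 (interval -0.14 to 0.30). The difference between the changes of HRAS and NRAS was not tested. Per kb of exon both were at a like level in the controls, 16.0 for HRAS and 13.7 CPM per kb for NRAS, and at 25.03 and 14.5 CPM per kb in the other group.

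BRAF, the RAF kinase gene of the set, had lower values in the libraries labelled knockdown but missed the threshold. It stood at 19.7 and 26.2 CPM in the controls and at 18.7 and 15.3 CPM with the NSD2 shRNA, and the groups did not overlap. Its log2 fold change was -0.43 (95% interval -0.78 to -0.09, adjusted p = 0.139 by edgeR). It passed the threshold without control library 1 (-0.62, adjusted p = 0.00208), without knockdown library 1 (-0.58, adjusted p = 0.0256) and with no filter (adjusted p = 0.0208), and over the alternatives its adjusted p ran from 0.00208 to 0.52.

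**Figure D2:**
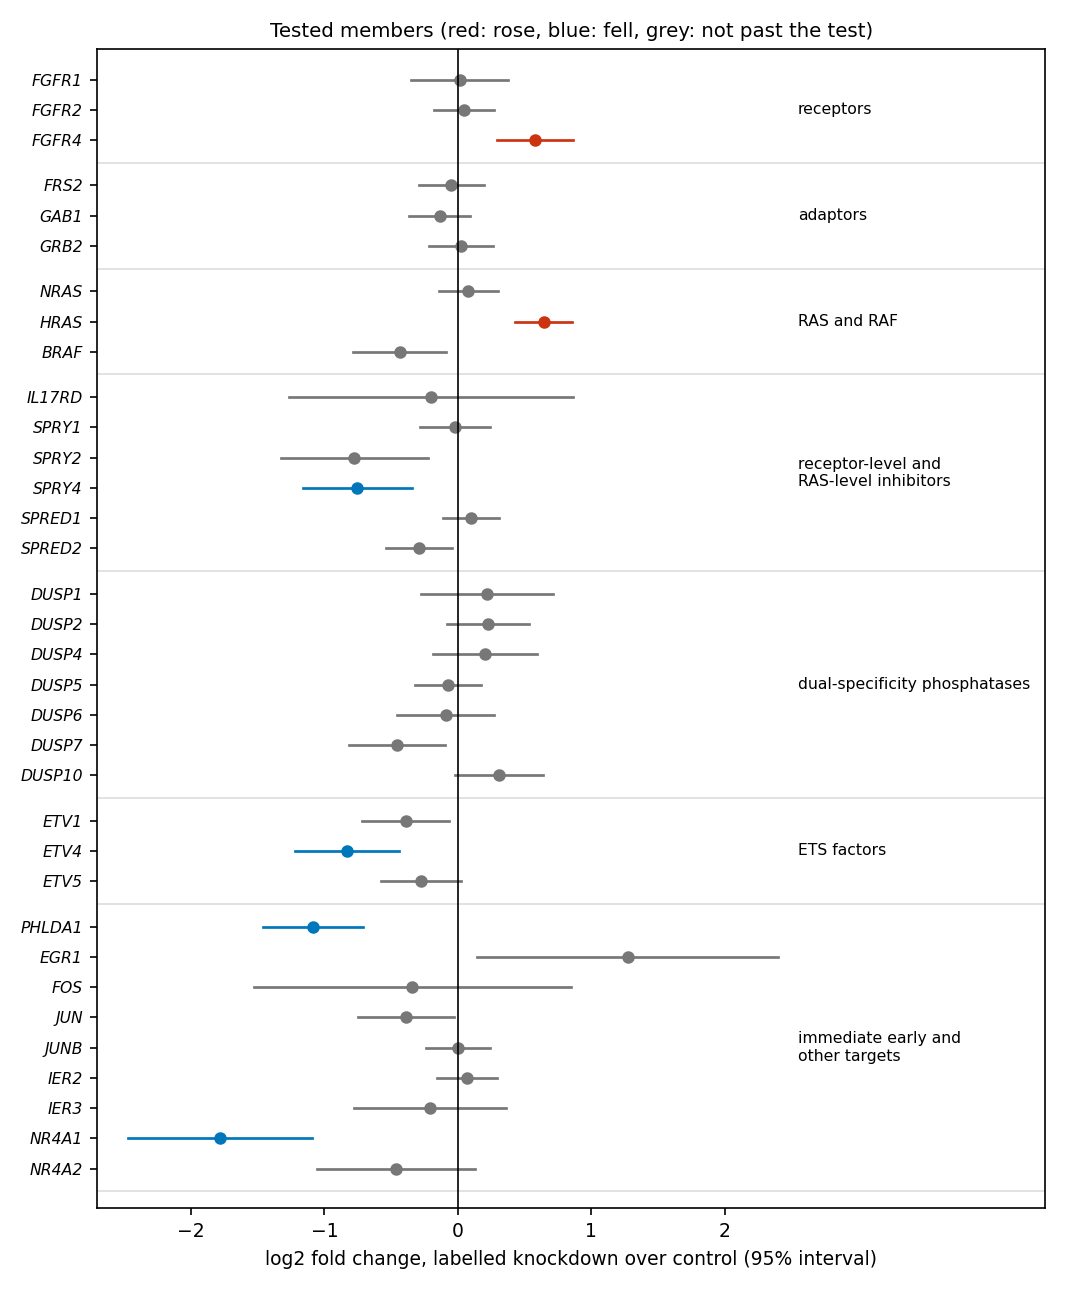
Log2 fold changes with 95% intervals (horizontal axis) of the 34 tested genes, grouped by role and coloured by whether they rose, fell or did not pass the test. The widest intervals are those of IL17RD, EGR1 and FOS, which had few fragments or differed between libraries of one group, and all 3 ETS genes lie to the left of 0.

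Of the inhibitors that act on receptors and RAS, 1 of 6 tested fell and 0 rose, where 4.19% of all genes tested fell and 1.74% rose. Sprouty and SPRED proteins restrain the step from receptor to RAF, and IL17RD (SEF) holds back FGFR signalling at the membrane. SPRY4 (ENSG00000187678, GRCh37 chromosome 5, 141689992 to 141706020) was at 7.46 and 8.82 CPM in the controls and at 5.54 and 4.13 CPM with the NSD2 shRNA. Both libraries labelled knockdown were below both controls, and the mean went from 8.14 ± 0.965 to 4.84 ± 1.00 CPM (SD, n = 2 each). The level was 1.69-fold lower (log2 fold change -0.75 with a 95% interval from -1.16 to -0.34 and an SE of 0.18, adjusted p = 0.0413 by edgeR). The call was near the threshold and was lost without knockdown library 2 (at -0.56 on the log2 scale, adjusted p = 0.215), with library-size scaling (0.0546), with the stricter filter (0.0525) and with GC and length terms (0.0634). Its adjusted p over the alternatives ran from 0.000622 to 0.215.

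SPRY2 had a log2 fold change as large as that of SPRY4 but fewer fragments. It was at 1.52 and 1.95 CPM in the controls and at 0.951 and 1.07 CPM in the other libraries, and the groups did not overlap. Its log2 fold change was -0.78 (interval -1.33 to -0.23, adjusted p = 0.0999). It passed the threshold without control library 1 (-0.94, adjusted p = 0.0442) and with no filter (adjusted p = 0.0342), with a range of 0.0342 to 0.316. SPRY1, the most abundant Sprouty gene per kb of exon at 6.03 CPM per kb in the controls, was at 21.9 and 25.8 against 22.9 and 24.2 CPM. Its interval, from -0.28 to 0.24, spans 0.

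The SPRED genes, whose products bring the RAS inhibitor neurofibromin to the membrane, did not pass the test. SPRED2 was at 50.5 and 45.9 CPM in the controls and at 42.5 and 36.2 CPM in the others (log2 fold change -0.29, interval -0.54 to -0.05, adjusted p = 0.155). SPRED1 was at 38.04 and 39.2 against 40.2 and 42.4 CPM (log2 fold change 0.10, interval -0.11 to 0.31). The groups overlapped for neither gene. SPRED3 had 1 or 2 fragments in every library and was not tested. IL17RD had 8 to 15 fragments per library, and at that depth its interval, from -1.27 to 0.86, does not exclude a 2-fold fall.

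The 7 DUSP genes encode phosphatases that remove phosphate from MAP kinases. The edgeR test called 0 of the 7, where 5.93% of all genes tested were called, and 1, DUSP7, was at an unadjusted p below 0.05, against 22.5% of all genes tested. DESeq2 also called 0, where it called 345 higher and 720 lower among all 17172 genes tested. Their log2 fold changes ran from -0.45 to 0.31, with 4 above 0 and 3 below. DUSP6, the cytoplasmic ERK phosphatase that is widely read as a marker of ERK activity, was at 8.45 and 6.70 CPM in the controls and at 7.49 and 6.76 CPM in the others. Its groups overlapped, and its log2 fold change was -0.09 (interval -0.45 to 0.27). DUSP5, a nuclear ERK phosphatase, was at 24.4 and 21.7 against 22.1 and 21.7 CPM (interval -0.32 to 0.17). DUSP7, a relative of DUSP6, had the lowest log2 fold change, with 20.1 and 17.2 CPM in the controls and 15.8 and 11.5 CPM in the others, and no overlap (log2 fold change -0.45, interval -0.81 to -0.09, adjusted p = 0.134). It passed the threshold without control library 2 (-0.57, adjusted p = 0.0253), without knockdown library 1 (-0.69, adjusted p = 0.00816) and with no filter (adjusted p = 0.0215), with a range of 0.00816 to 0.689.

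DUSP10 and DUSP2 had somewhat higher values in both libraries labelled knockdown, without passing the test. DUSP10, which acts on JNK and p38, was at 5.72 and 5.75 against 6.85 and 7.33 CPM (log2 fold change 0.31, interval -0.02 to 0.64). DUSP2, a nuclear phosphatase of activated lymphocytes, was at 11.9 and 10.4 against 12.04 and 14.1 CPM (0.23, interval -0.08 to 0.54). DUSP4 and DUSP1, both nuclear and inducible, varied between libraries of a group. DUSP4 was at 44.3 and 57.5 CPM in the controls and at 47.7 and 69.6 CPM in the others, and DUSP1 at 9.56 and 12.5 against 9.68 and 15.9 CPM. Their groups overlapped. With knockdown library 1 left out, DUSP4 passed the threshold at 0.46 (adjusted p = 0.0398) but had a log2 fold change of -0.10 without knockdown library 2 (adjusted p = 0.91, range 0.0398 to 0.912). The sign of DUSP1 likewise turned from 0.22 to -0.19 without knockdown library 2.

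The ETS factor genes of the PEA3 group, ETV1, ETV4 and ETV5, which ERK signalling induces, all had lower values in the libraries labelled knockdown. Of the 3, 1 fell by test, where 4.19% of all genes tested fell. ETV4 (ENSG00000175832, GRCh37 chromosome 17, 41605212 to 41656988) was at 20.9 and 21.5 CPM in the controls and at 14.4 and 9.54 CPM with the NSD2 shRNA. The controls lay close together while knockdown library 2 was the lowest by far. The mean went from 21.2 ± 0.422 to 11.97 ± 3.43 CPM (SD, n = 2 each), with a log2 fold change of -0.83 (95% interval from -1.22 to -0.44, SE 0.17, adjusted p = 0.0231 by edgeR). Without knockdown library 2 it was -0.57 and missed the threshold (adjusted p = 0.0515, and 2.44e-07 to 0.0515 over the alternatives). ETV4 overlaps DHX8 on the opposite strand, so the origin of fragments in the overlap is uncertain.

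ETV1 was at 15.0 and 17.5 CPM in the controls and at 11.1 and 13.8 CPM in the others, without overlap (log2 fold change -0.39, interval -0.71 to -0.07, adjusted p = 0.149). It passed the threshold without control library 1 (-0.49, adjusted p = 0.0286, range 0.0286 to 0.558). ETV5, which overlaps DGKG, was at 25.1 and 20.4 against 20.04 and 17.6 CPM (log2 fold change -0.28, interval -0.57 to 0.02, adjusted p = 0.257). Its groups were separated by less than 1 CPM.

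Of the 9 tested immediate early and other target genes, PHLDA1 and NR4A1 fell and 0 rose. Of all genes tested, 4.19% fell and 1.74% rose. PHLDA1, a pleckstrin homology-like protein that ERK signalling induces (ENSG00000139289, GRCh37 chromosome 12, 76419227 to 76427712), was at 5.92 and 5.94 CPM in the controls and at 2.65 and 2.93 CPM with the NSD2 shRNA. The libraries of each group were close together and the groups were well apart. It was 2.12-fold lower (log2 fold change -1.09 with a 95% interval from -1.46 to -0.71 and an SE of 0.17, adjusted p = 0.0061 by edgeR), a call kept under every alternative run, at -1.17 to -0.96. Its promoter window, printed above, held none of the motifs searched.

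NR4A1, the orphan nuclear receptor NUR77, had the lowest log2 fold change of the set but few fragments. On GRCh37 it lies on chromosome 12 from 52416616 to 52453291 (ENSG00000123358). It had 55 and 44 fragments in the control libraries and 14 and 16 in those labelled knockdown, or 1.09 and 0.933 against 0.29 and 0.295 CPM. Both libraries labelled knockdown were below both controls. The mean went from 1.01 ± 0.11 to 0.292 ± 0.00373 CPM (SD, n = 2 each), which was 3.44-fold lower (log2 fold change -1.78 with a 95% interval from -2.47 to -1.09 and an SE of 0.31, adjusted p = 0.0101 by edgeR). This call held under every alternative in which the gene was tested, and the stricter filter left it out. NR4A2, its relative NURR1, was at 1.37 and 1.02 CPM in the controls and at 0.869 and 0.866 CPM in the others, without overlap, and did not pass the test (log2 fold change -0.46, interval -1.05 to 0.13, adjusted p = 0.344).

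Of the 34 tested genes, 15 were higher in library 2 than in library 1 of both groups and 13 were lower in both. No like count was made over all genes tested. EGR1, FOS, JUN, DUSP1 and DUSP4 were among the 15. EGR1, a zinc finger factor and classic first responder to growth factors, was at 0.218 and 0.657 CPM in the controls and at 0.641 and 1.44 CPM in the libraries labelled knockdown (11 and 31 against 31 and 78 fragments). The groups overlapped. On the log2 scale library 2 was 1.60 above library 1 among the controls and 1.16 above it in the other group, and the log2 fold change between the groups was 1.27 (interval 0.15 to 2.40, adjusted p = 0.174). EGR1 passed the threshold without control library 2 (2.25, adjusted p = 0.00732), without knockdown library 1 (1.73, adjusted p = 0.00092) and with no filter (adjusted p = 0.00111), and its adjusted p ran from 0.00092 to 0.769.

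FOS, the partner of JUN in AP-1, was at 0.989 and 2.59 CPM in the controls and at 0.62 and 2.16 CPM in the others. Its ratio of library 2 over library 1, 1.39 and 1.80 on the log2 scale, was larger than its log2 fold change between the groups of -0.34 (interval -1.53 to 0.85). That change was -1.52 without knockdown library 2 (adjusted p = 0.00502, range 0.00502 to 0.941), 0.50 without control library 2 and 0.28 without knockdown library 1. JUN was at 35.9 and 43.9 CPM in the controls and at 25.2 and 35.7 CPM in the others. Its groups were apart by less than 1 CPM, and the log2 fold change was -0.39 (interval -0.75 to -0.03, adjusted p = 0.195). JUN passed the threshold without control library 1 (-0.52, adjusted p = 0.0104), without knockdown library 2 (-0.67, adjusted p = 0.00297) and with no filter (adjusted p = 0.0205), with a range of 0.00297 to 0.675. Over all genes tested, the log2 ratio of library 2 over library 1 had a median of -0.0033 in the control and 0.0011 in the other group, with 95% of genes between -0.61 and 0.88 and between -0.65 and 0.72. EGR1 and FOS lay above that range in both groups, while the other tested genes of the set, JUN, DUSP1 and DUSP4 included, lay within it. The labels do not say what the library numbers stand for.

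**Figure D3:**
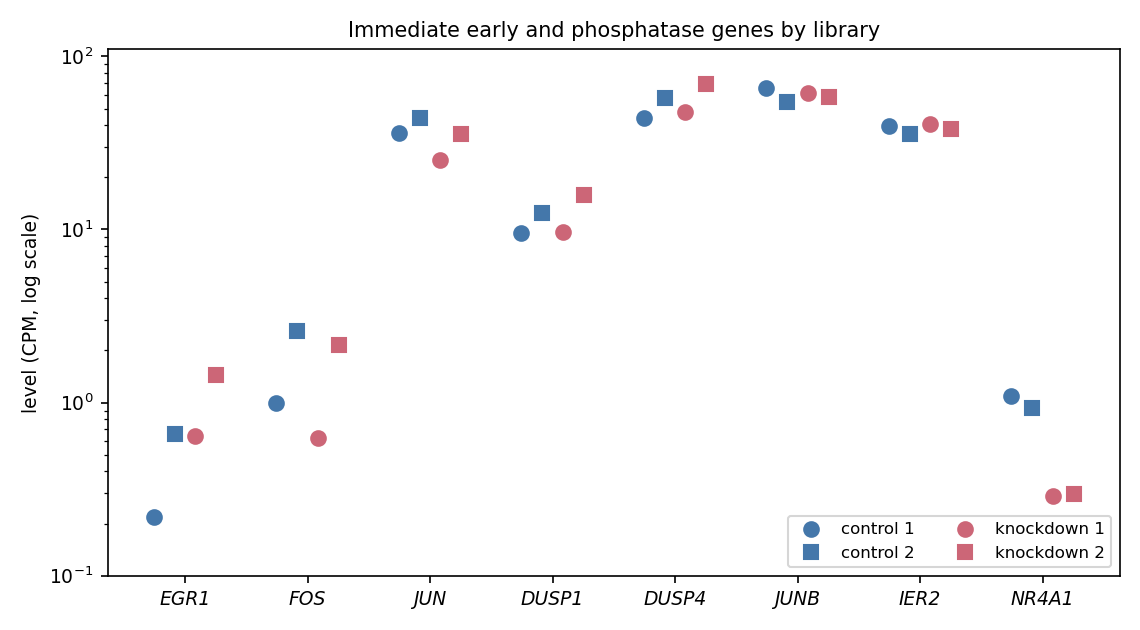
Levels in CPM (vertical axis, log scale) of 8 genes in each library, with circles for libraries numbered 1, squares for those numbered 2, blue for control and red for the group labelled knockdown. EGR1, FOS, JUN, DUSP1 and DUSP4 are higher in library 2 within both groups, JUNB and IER2 are not, and NR4A1 differs by group.

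JUNB and IER2 were abundant and close to level in all libraries. JUNB, another AP-1 subunit, was at 65.3 and 54.9 CPM in the controls and at 61.8 and 58.4 CPM in the others (interval -0.24 to 0.24), and it overlaps HOOK2 on the opposite strand. IER2, an immediate early gene, was at 39.5 and 35.7 against 40.6 and 38.2 CPM (interval -0.16 to 0.29). IER3, a stress-induced regulator of ERK and survival, had 47 to 58 fragments per library and a log2 fold change of -0.21 (interval -0.78 to 0.36). The table held 6 identifiers for IER3, and the 5 on alternative haplotypes were at 0 in every library. FOSL1, an AP-1 gene that sustained ERK signalling induces, had 1 and 3 fragments in the controls and 4 and 6 in the others. EGR2 and EGR3 each had a single fragment, in a control library, so no change in these 3 genes was detectable at this depth.

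Levels within the set spanned a wide range. Per kb of exon, JUNB led in the control libraries at 33.1 CPM per kb, followed by GRB2 at 21.9, HRAS at 16.0, NRAS at 13.7, IER2 at 12.3 and JUN at 12.02. NRAS and HRAS were above BRAF at 5.03 CPM per kb. The most abundant feedback inhibitors were SPRED2 at 9.35, DUSP5 at 8.81, DUSP4 at 7.01 and SPRY1 at 6.03 CPM per kb. DUSP6 stood at 1.65 and SPRY4 at 1.37 CPM per kb. At the low end, EGR1 and NR4A1 stood at 0.139 and 0.137 CPM per kb, and IL17RD at 0.0259. These are levels, and neighbours in this order, such as DUSP10 and DUSP6, often differed by less than the spread between libraries.

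**Figure D4:**
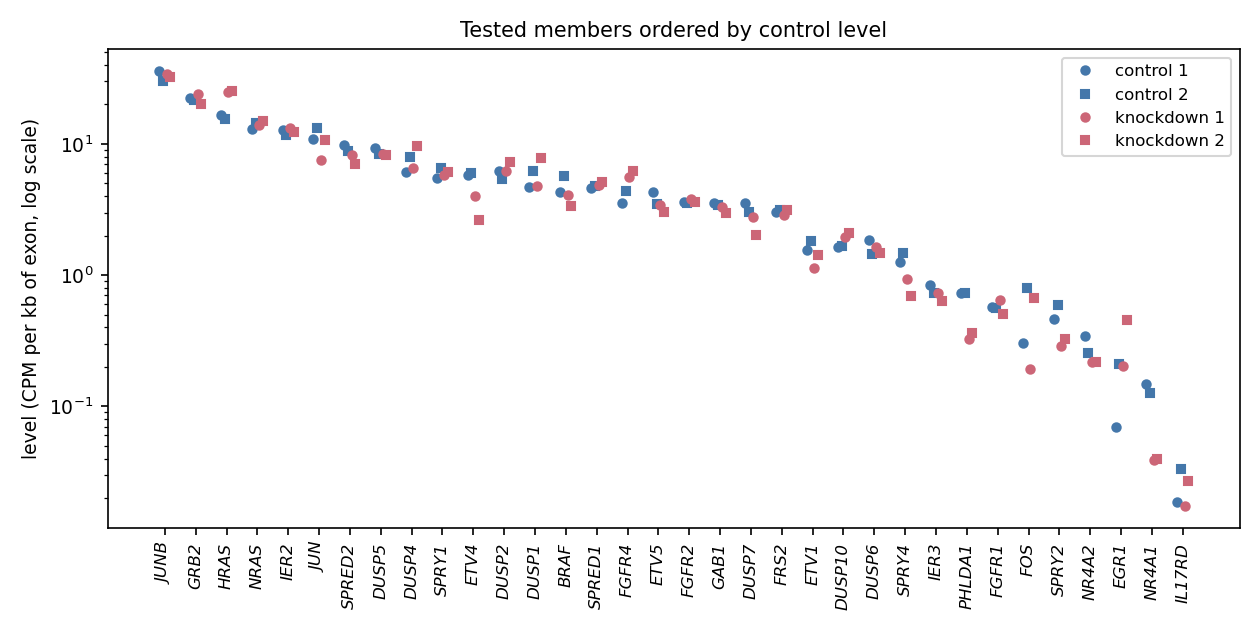
Levels per kb of exon (vertical axis, CPM per kb, log scale) of the 34 tested genes in each library, ordered by the mean of the control libraries from JUNB at 33.1 to IL17RD at 0.0259 CPM per kb. The groups do not overlap for 19 of the 34 genes (55.9%, near the 53.2% of all genes tested), often by a narrow gap. The wider gaps include those of HRAS, ETV4, PHLDA1 and NR4A1.

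For 15 of the 28 genes that did not pass the test, the whole 95% interval lay within a 1.5-fold change in either direction. These intervals rest on the model of the spread fitted across all genes. For 7 of the 28, BRAF, SPRY2, SPRED2 (also among the 15), DUSP7, ETV1, EGR1 and JUN, the interval did not include 0, but the adjusted p missed the threshold over all genes tested. An unadjusted p below 0.05 was found for 13 of the 34 genes (38.2%), and for 22.5% of all genes tested. This share too is that of a set chosen with earlier results of these data known.

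Of 82 other tested genes of the pathway, 6 fell (7.32%, against 4.19% of all genes tested) and 0 rose (1.74% of all genes tested). The pathway lists were also chosen with earlier results known, so this share is descriptive. Among 29 kinases and adaptors, all tested, 2 fell and 0 rose. KSR2, a scaffold of RAF and MEK, had 69 and 67 fragments in the controls and 6 and 7 in the libraries labelled knockdown (log2 fold change -3.43, adjusted p = 0.000727 by edgeR), and GAB2, a relative of GAB1, was at 2.39 and 3.12 against 1.37 and 0.94 CPM (-1.26, adjusted p = 0.0203). Of 19 tested negative regulators, 0 passed the edgeR test, with 6 at an unadjusted p below 0.05 (22.5% of all genes tested). DESeq2 called 1 of the 19, RASAL2 (log2 fold change -0.59, adjusted p = 0.0317), and 345 higher and 720 lower among all 17172 genes tested. Among 25 tested target genes and ETS or SRF factors, 3 fell and 0 rose by the edgeR test. These were FOSL2, an AP-1 subunit, at 3.78 and 4.50 against 2.42 and 1.92 CPM (-0.93, adjusted p = 0.0273), ATF3, a stress-response factor (-0.46, adjusted p = 0.0337), and the ephrin receptor gene EPHA4, with 15 and 17 fragments against 0 and 3. Of 30 FGF ligand and coreceptor genes, 9 were tested, and FGF13, an intracellular FGF that is not secreted, fell from 7.70 and 5.83 to 3.56 and 3.30 CPM (-0.98, adjusted p = 0.0141). The median log2 fold changes of these 4 lists were -0.10, 0.02, -0.15 and -0.41, in the same order. In that order DESeq2 called 2, 1, 5 and 1 of the tested genes.

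In the authors' deposited table, 1 of the 36 genes of the set with an adjusted p was below 0.05, PHLDA1, with a log2 fold change of -1.05 (SE 0.28, adjusted p = 0.0126), where 1.85% of all genes with an adjusted p were. NR4A1 followed in the authors' deposited table with -1.64 (SE 0.50, adjusted p = 0.0573) and HRAS with 0.65 (SE 0.21, adjusted p = 0.0901). The authors' deposited table gave ETV4 -0.70 with an SE of 0.80, FGFR4 0.58 (adjusted p = 0.872) and SPRY4 -0.72 (adjusted p = 0.328). The sign of all 6 was that of the edgeR fit to the 4 libraries, and the libraries in the authors' model are not stated. The header of that table names the control of the contrast LUC while its control count columns are named shScr, so which control the authors' fold changes refer to is uncertain.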

How the data were processed

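Per the submitters' processing notes, the authors trimmed reads with Trim Galore 0.3.7, aligned them with STAR 2.5.3 to GRCh37 and counted with featureCounts of Subread 1.4.6. Each library was deposited as raw fragment counts by gene, made without strand per the file headers. The authors' deposited table gives log2 fold changes and their standard errors, raw and adjusted p-values and exonic lengths from DESeq2, version not given in the sources used here. Its 4 count columns were not used.

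Groups were compared with edgeR 4.0.16 (quasi-likelihood F test, R 4.3.3) on group alone, with TMM scaling, the default filter on low counts and Benjamini-Hochberg adjustment over all 17172 genes tested. CPM are on TMM-scaled libraries. Counting depth limits genes with few fragments, and intervals rest on the fitted spread.

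All 38 genes were to be named, with NSD2 and FGFR3, and from each pathway list up to 3 genes that rose and 3 that fell, by smallest adjusted p. The genes, lists and rule were chosen with earlier results of these data known. RASAL2 was named after its values were seen, and so were the genes shown as markers. Alternatives were 3 other scalings (RLE, upper quartile, library size), no filter, a filter of 1 CPM in 2 libraries, DESeq2 1.42.0, limma-voom (limma 3.58.1), robust empirical Bayes, the replicate number as a block, spline terms for GC content (GENCODE 29 transcripts) and exonic length, and leaving out each library. Promoter sequences are those of RefSeq. Figures were drawn with matplotlib 3.10.9.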

Additional observations from a re-analysis of the deposited data

How the results depend on the processing

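Of the 507 alternative values of single genes, 435 kept both their direction and their side of the threshold, 6 lost a call, 31 gained one and 35 changed sign, in 13 genes. The number of genes of the set that fell, 4 in the main test, was 8 with no filter and 2 with the filter of 1 CPM. That filter left out NR4A1, and SPRY4 missed the threshold under it (adjusted p = 0.0525 by edgeR). The number that fell is also given for the fits that left out 1 library. This number ran from 4 to 8 when 1 library was left out, with 8 without control library 1. The number that rose, 2 in the main test, ran from 1 without knockdown library 2 to 4 without knockdown library 1. Leaving out a library leaves its partner alone, which is assumed to vary like the others. With GC content and length terms 3 fell and 2 rose, while over all genes the lower share of calls went from 70.6% to 48.1% and the median log2 fold change from -0.002 to 0.062.

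Libraries of the same number correlated at 0.24 in their deviations from the group means, but the labels do not say that a number marks a pair. With the replicate block, 10 genes of the set fell and 3 rose, and with the block and GC content and length terms 8 fell and 5 rose. The falls with the block included BRAF (adjusted p = 0.014 by edgeR), SPRY2 (0.0148) and SPRED2 (0.0172), which missed the threshold in the main test. With the GC content and length terms as well, BRAF (0.00185) and SPRY2 (0.00836) fell, SPRED2 missed the threshold (0.0522) and SPRED1 rose (0.0245). Over all genes the block raised the higher and lower calls from 299 and 719 to 1327 and 1992, and with the GC content and length terms to 3242 and 1890, with a lower share of 60.0% and 36.8%. Without a block, the higher and lower calls over all genes were 658 and 1490 with no filter and 668 and 619 with GC content and length terms. They were 682 and 1342 without control library 1 and 453 and 926 without control library 2, and 430 and 893 and 173 and 649 without knockdown libraries 1 and 2.

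No called gene changed sign. JUNB, at 0.0005 in the main test, was at -0.0006 with RLE scaling and with DESeq2, -0.0119 with upper-quartile and -0.0174 with library-size scaling, -0.0013 with no filter, -0.0097 with the filter of 1 CPM, -0.0823 with GC content and length terms and -0.0805 with these and the replicate block. FGFR1 was at -0.0036 with library-size scaling and -0.0024 with limma-voom, and DUSP6 at 0.0014 with the block and the GC content and length terms. With GC content and length terms the log2 fold changes of FRS2, GAB1 and SPRY1 became 0.0535, 0.014 and 0.0234, and with the replicate block as well 0.0525, 0.0155 and 0.0259. Over the fits that left out 1 library the log2 fold change crossed 0 for 12 genes: FGFR1 (-0.17 to 0.18), FRS2 (-0.12 to 0.0174), GRB2 (-0.10 to 0.14), IL17RD (-0.57 to 0.25), SPRY1 (-0.13 to 0.10), DUSP1 (-0.19 to 0.54), DUSP4 (-0.10 to 0.46), DUSP5 (-0.16 to 0.0139), DUSP6 (-0.25 to 0.0915), FOS (-1.52 to 0.50), JUNB (-0.125 to 0.135) and IER2 (-0.0108 to 0.15). The cause was not tested.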
